A study of Mus musculus with 12 samples.

Results

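The mitosis genes are 50 mouse genes whose products take a cell from late G2 through chromosome segregation to the splitting of the cell. They were chosen by gene symbol from a table of 17419 genes, and all 50 were present. All of them passed the filter on low counts, with mean counts per library from 192 (Ccnb2) to 7911 (Top2a) and a median of 1196. Entry into mitosis is driven by cyclin B bound to the kinase Cdk1, which Cdc25 phosphatases switch on. Kinases, motor proteins and kinetochore proteins then build the spindle, the spindle checkpoint holds back anaphase until every chromosome is attached, and the anaphase-promoting complex (APC/C) with Cdc20 releases separase and destroys the cyclins. In dividing cells many of these genes are transcribed mainly in G2 and M, and in a culture that is not synchronised their RNA is a mean over cells in all phases.

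The cells were NIH-3T3, an established mouse fibroblast line of wild-type (WT) genotype. 4-thiouridine (4sU), a uridine analogue that is built into RNA as it is made, was added at 800 µM for 15, 30, 60, 90 or 120 min, and a group called no4sU received none. The protocol is SLAM-seq: iodoacetamide (IAA) alters 4sU, which sequencing then reports as C, and the deposited new-to-total ratio (NTR) estimates what fraction of each RNA is newer than the start of labelling. Each of the 6 groups had 2 libraries, A and B, and the comparisons were between labelling times and with no4sU, to see how the length of labelling acts on the quantification. Nothing in the labels says that A and B came from separate cultures, so the p-values measure the spread between these samples, which may be technical. In bulk RNA, fewer cells in mitosis and less RNA of these genes per cell cannot be told apart.

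The libraries held between 9917026 and 13739380 reads, and 11564 genes were tested. Levels are given as CPM, the count scaled to library size, with TMM factors that lay between 0.970 and 1.02. The 9 fibroblast markers summed to 16058 to 19631 CPM per library, and the epithelial markers listed in the table, Cdh1 and Krt8, together reached at most 0.582 CPM. The no4sU libraries stood apart from each other in a length-dependent way. Over the 50 mitosis genes, log2 of A over B ran from -0.34 to 0.32, and its Spearman rank correlation with the deposited length was -0.66. That length is not the span of the gene on the genome. The correlation was -0.58 over the 9065 genes that averaged 100 or more counts per library. Long members such as Cenpf (102 and 127 CPM in A and B) and Mki67 (369 and 431 CPM) were lower in A, and short ones such as Cdc20 (179 and 154 CPM) were higher in A. Some long members went the other way, such as Espl1 (94.3 and 86.2 CPM). Comparisons with no4sU are therefore given beside comparisons with the 15 min libraries, and with each no4sU library left out.

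Promoters are shown first because the genes were chosen for their shared function and their start sites share sequence that the choice did not use. RefSeq promoters of 300 bases on GRCm38.p6 (250 before the start and 50 from it on) were matched by symbol for 42 of the 50 genes. No entry was used for Ccna2, Aurkb, Kif20a, Tpx2, Incenp, Cdca2, Cdc25c and Smc4. A cell cycle genes homology region, written here as TTTGAA or TTCGAA on either strand, is the element through which DREAM and MuvB complexes act in textbook accounts, and CCAAT, searched on both strands, is the NF-Y element. No stretch can match more than 1 of the 3 motifs in full. TTTGAA or TTCGAA was found in 32 of the 42 (76.2%), against 21.7% of 27025 genes with promoters of the same length. CCAAT was found in 32 of 42 (76.2%) against 41.1% of all, and both together in 29 of 42 (69.0%) against 8.61%. A match of TTTGAA or TTCGAA began within 50 bases of the start in 29 of the 32 genes that had one, a share of 90.6%, and in 28.2% of the 5854 genes of the whole table that had one. The stretches below lie just upstream of 6 starts, end before the first base annotated as transcribed in GENCODE M21, and are written 5′ to 3′ on the strand of the gene, with capitals for CCAAT (or ATTGG, its other strand) and for TTTGAA (or TTCAAA, its other strand). They were picked to show both motifs in genes that were lower at 120 min (Cdk1, Top2a, Kif11, Ttk) and in genes that did not pass the threshold (Cdc20, Ncapg).
Cdk1, chr10:69352939-69353012, minus strand: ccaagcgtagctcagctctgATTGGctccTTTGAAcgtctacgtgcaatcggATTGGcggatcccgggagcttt
Top2a, chr11:99024190-99024289, minus strand: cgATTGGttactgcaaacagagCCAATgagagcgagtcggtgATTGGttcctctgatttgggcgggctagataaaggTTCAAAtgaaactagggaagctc
Kif11, chr19:37376282-37376381, plus strand: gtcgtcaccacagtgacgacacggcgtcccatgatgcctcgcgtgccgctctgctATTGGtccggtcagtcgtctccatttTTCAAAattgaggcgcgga
Ttk, chr9:83834589-83834688, plus strand: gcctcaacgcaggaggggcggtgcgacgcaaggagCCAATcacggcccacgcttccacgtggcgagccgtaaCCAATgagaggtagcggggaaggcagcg
Cdc20, chr4:118437353-118437443, minus strand: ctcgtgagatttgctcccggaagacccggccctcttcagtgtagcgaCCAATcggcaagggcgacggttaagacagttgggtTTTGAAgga
Ncapg, chr5:45669825-45669918, plus strand: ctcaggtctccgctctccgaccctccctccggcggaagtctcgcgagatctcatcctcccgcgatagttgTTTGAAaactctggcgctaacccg
In these stretches Cdk1 held 2 CCAAT boxes and Top2a 3, each with 1 TTTGAA, Cdc20 and Kif11 held 1 of each, Ncapg held TTTGAA alone, and Ttk held 2 CCAAT boxes, with its TTTGAA match starting 8 bases after the start, outside the stretch shown. The motif did not separate the genes that were lower at 120 min from the others: TTTGAA or TTCGAA was present in 10 of 13 genes lower in either comparison (76.9%) and in 22 of 29 others (75.9%). Neither motif was found in the 300 bases at the start of G2e3, the gene with the largest decrease. A match is a description of letters and not of binding.

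At 120 min of labelling, 13 of the 50 mitosis genes fell against no4sU and 0 rose (edgeR's quasi-likelihood test, Benjamini-Hochberg adjusted p below 0.05 over all genes). That is 26% of the members, and 8.78% of all tested genes were lower and 5.43% higher in the same comparison. Against 15 min, 15 fell (30%) and 0 rose, with 11.3% of all genes lower and 7.93% higher. The median log2 fold change of the members was -0.06 against no4sU and -0.09 against 15 min, and that of all genes was 0.01 in both. Both comparisons use the 120 min libraries, so they are not independent. The genes that fell in both numbered 12: Ccna2, Ccnb1, Cdc25b, Cdca2, Ect2, G2e3, Incenp, Kif11, Kif20b, Kif2c, Top2a and Ttk. Cdk1 passed the threshold against no4sU alone, and Aspm, Cenpe and Espl1 against 15 min alone, and no difference between the comparisons was tested. Without regard to the test, both 120 min libraries lay below both no4sU libraries for 20 members (26.7% of all genes) and above them for 3 (24.9% of all genes), and below both 15 min libraries for 31 members (32.7% of all genes) and above them for 1 (33.3% of all genes). Members were deeply counted compared with other genes, and with the 9065 genes of at least 100 counts as the background, whose median mean count was 553, the shares lower were 10.5% against no4sU and 13.8% against 15 min.

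The counts of members depended on single libraries. Against no4sU, 7 fell without 120 min A and 5 without 120 min B (2.81 and 2.84% of all genes lower), while 19 fell and 1 (Birc5) rose without no4sU A (16.0% of all genes lower), and 13 fell and 4 (Anln, Mki67, Smc2 and Smc4) rose without no4sU B, where 7.41% of all genes were lower and 8.84% higher. Against 15 min, 8 fell without 120 min A, 8 without 120 min B, 8 without 15 min A and 12 without 15 min B (5.57, 4.52, 4.44 and 5.99% of all genes lower, in this order). Fitted on the 4 libraries compared, 4 fell against no4sU (1.33% of all genes lower) and 21 against 15 min (18.3%). Fitted on the 10 labelled libraries, without no4sU, 21 fell against 15 min (16.9%). G2e3, Kif11 and Kif20b stayed past the threshold under all 10 alternatives of the comparison with no4sU, and Ccna2, Ect2, G2e3, Kif11, Kif20b and Ttk under all 11 of the comparison with 15 min. Scaling by library size alone gave 14.6% of all genes lower and 1.76% higher against no4sU, and 16.1% lower and 3.68% higher against 15 min, with 18 and 21 members lower.

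Shorter labelling gave few calls. At 15, 30 and 60 min against no4sU, 0 members passed the threshold in either direction (0, 0 and 0.0173% of all genes, in this order), and 3, 4 and 5 members had an unadjusted p below 0.05 (5.34, 5.79 and 7.74% of all genes). DESeq2 also called 0 members at each of these times. It called 0% of all genes at 15 and 30 min, and 0.0292% lower and 0.0117% higher at 60 min. Without the no4sU B library, 10 members at 15 min, 9 at 30 min and 9 at 60 min passed it, all of them higher except Cdk1 at 60 min (7.67, 7.65 and 7.30% of all genes were then higher). Anln, Cenpe, Cenpf, Ect2, Mki67, Smc2 and Smc4 were among them at each of the 3 times. At 90 min, G2e3 alone was lower against no4sU (0.943% of all genes lower), and G2e3 and Kif20b were lower against 15 min (1.01% of all genes lower). In the latter comparison 6 members (Ccna2, G2e3, Kif11, Kif20b, Kif2c and Ttk) were lower on the 10 labelled libraries (6.09% of all genes) and on the 4 compared (6.67%), and 0 were without 15 min A or without 90 min B (0.0513 and 0.0684% of all genes).

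**Figure D1:**
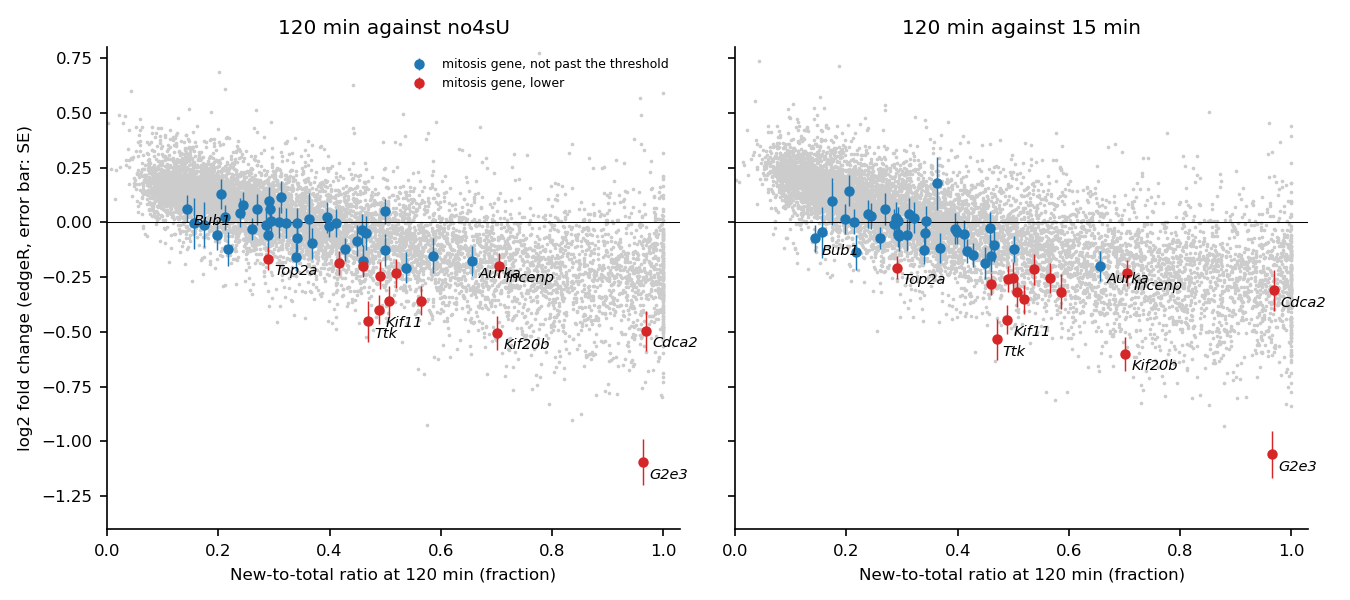
The log2 fold change (edgeR, error bars are SE) at 120 min against no4sU (left) and against 15 min (right) is plotted on the NTR at 120 min, the mean of 2 libraries. Red points are mitosis genes that passed the threshold, blue points those that did not, and grey points all genes with 100 or more counts on average (2 lie outside the range in each panel). G2e3 lies lowest, at -1.09 and -1.06, and no red point lies above 0.

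The roles hold 3 to 11 genes each, so their counts are descriptions, to be read beside the 8.78% of all genes that were lower against no4sU and the 11.3% against 15 min. Among the cyclins, Cdk1 and the Cdc25 phosphatases, 4 of 6 fell against no4sU and 3 of 6 against 15 min. Ccnb1, cyclin B1, the cyclin that takes Cdk1 into mitosis, stood at 130 and 132 CPM without 4sU (libraries A and B), at 131 and 134 CPM at 15 min, and at 105 and 116 CPM at 120 min. Both 120 min libraries were below all 4 reference libraries, and the log2 fold change was -0.24 ± 0.06 (SE, adjusted p = 0.0112) against no4sU and -0.26 ± 0.06 (adjusted p = 0.00585) against 15 min. Ccna2, cyclin A2, which acts in S phase and early mitosis, was at 222 and 222 CPM without 4sU, 236 and 234 CPM at 15 min, and 196 and 191 CPM at 120 min, and fell by 0.20 and 0.28 on the log2 scale. Its exons overlap those of Exosc9 on the other strand, and whether counting used the strand was not given in the sources used here. Cdc25b, a phosphatase that activates Cdk1, fell by 0.36 against no4sU and by 0.25 against 15 min, and its exons overlap Spef1 on the other strand. Cdk1 itself was at 278 and 268 CPM without 4sU, 253 and 272 CPM at 15 min, and 232 and 248 CPM at 120 min. Its 120 min libraries were the lowest in both comparisons, with a log2 fold change of -0.18 ± 0.05 (adjusted p = 0.0307) against no4sU and -0.13 ± 0.06 (adjusted p = 0.106) against 15 min. Ccnb2 and Cdc25c did not pass the threshold, with log2 fold changes against no4sU of -0.0046 and 0.013.

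Of the mitotic kinases Plk1, Aurka and Nek2, 0 passed the threshold in either comparison. Aurka, the kinase of centrosomes and spindle poles, was at 71.4 and 67.3 CPM without 4sU, 68.0 and 72.7 CPM at 15 min, and 60.6 and 61.9 CPM at 120 min. Its 120 min libraries did not overlap with either reference, yet the adjusted p was 0.0922 against no4sU and 0.0520 against 15 min, for log2 fold changes of -0.18 ± 0.07 and -0.20 ± 0.07. Plk1, which acts from mitotic entry to cytokinesis, was at 64.8 and 60.1 CPM without 4sU, 65.9 and 63.2 CPM at 15 min, and 61.4 and 65.1 CPM at 120 min, and its groups overlapped. Nek2, a kinase that separates the centrosomes, had a log2 fold change of -0.18 ± 0.07 against no4sU (adjusted p = 0.101).

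The chromosomal passenger complex brings Aurora B kinase (Aurkb) to centromeres and later to the spindle midzone, with Incenp as its scaffold and survivin (Birc5) and borealin (Cdca8) as its targeting subunits. Of these 4, Incenp alone passed the threshold. Against no4sU, Incenp did not pass it under DESeq2 or on the compared groups alone. It was at 137 and 140 CPM without 4sU, 145 and 139 CPM at 15 min, and 120 and 122 CPM at 120 min, a log2 fold change of -0.20 ± 0.06 (adjusted p = 0.0292) against no4sU and -0.23 ± 0.06 (adjusted p = 0.00956) against 15 min. The log2 fold changes of the other subunits ranged from -0.12 (Cdca8, against 15 min) to 0.06 (Birc5, in both comparisons).

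Among 9 checkpoint and kinetochore genes, 1 fell against no4sU (11.1%, near the share of all genes) and 2 against 15 min (22.2%). Ttk, the checkpoint kinase also called Mps1 (chr9:83834689-83872389 in GENCODE M21 on GRCm38), was at 29.7 and 29.3 CPM without 4sU, 31.7 and 30.6 CPM at 15 min, 24.98 and 28.6 CPM at 60 min, and 22.4 and 20.8 CPM at 120 min. The 120 min libraries were the lowest of all 12, and the log2 fold change was -0.45 ± 0.09 (adjusted p = 0.00391) against no4sU and -0.53 ± 0.09 (adjusted p = 0.000888) against 15 min. Cenpe, a kinesin of the kinetochore, fell by 0.26 on the log2 scale against 15 min (adjusted p = 0.0213) and had a log2 fold change of -0.13 against no4sU, where its libraries overlapped. Bub1, a checkpoint kinase, was at 90.5 and 95.2 CPM without 4sU, 99.7 and 105 CPM at 15 min, and 99.8 and 94.5 CPM at 120 min, with a log2 fold change of 0.06 ± 0.06 against no4sU and -0.07 ± 0.06 against 15 min. The checkpoint genes Bub1b, Bub3 and Mad2l1, the centromeric histone gene Cenpa, Cenpf and Knstrn stayed short of the threshold too, and their log2 fold changes ranged from -0.10 (Cenpf, against 15 min) to 0.10 (Mad2l1, against no4sU).

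At anaphase onset, Cdc20 activates the APC/C, Ube2c is its ubiquitin-conjugating enzyme, and securin (Pttg1) is destroyed to free separase (Espl1). Espl1 was at 94.3 and 86.2 CPM without 4sU, 95.03 and 85.97 CPM at 15 min, and 79.9 and 76.3 CPM at 120 min, and it fell by 0.21 against 15 min (adjusted p = 0.0399) with an adjusted p of 0.0543 for the same size against no4sU. Cdc20 was at 179 and 154 CPM without 4sU, 173 and 171 CPM at 15 min, and 164 and 167 CPM at 120 min, so the 120 min libraries lay between the no4sU libraries. Its log2 fold changes were -0.0047 ± 0.06 and -0.06 ± 0.06, and its exons overlap Elovl1 on the other strand. Pttg1 was at 35.9 and 28.6 CPM without 4sU, 27.8 and 31.7 CPM at 15 min, and 30.4 and 33.0 CPM at 120 min, overlapping with both references.

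The 11 spindle motors and microtubule proteins had 3 members that fell against no4sU and 4 against 15 min. Kif20b, a kinesin of late mitosis (chr19:34922361-34975745), was at 98.1 and 120 CPM without 4sU, 117 and 116 CPM at 15 min, 112 and 112 CPM at 30 min, 110 and 108 CPM at 60 min, 98.2 and 88.7 CPM at 90 min, and 75.5 and 78.5 CPM at 120 min. From 15 min on, each pair of libraries lay below the pair before it. The log2 fold change at 120 min was -0.50 ± 0.08 (adjusted p = 0.000441) against no4sU and -0.60 ± 0.08 (adjusted p = 7.0e-05) against 15 min. Kif11, the kinesin that pushes the spindle poles apart (chr19:37376403-37421859), was at 131 and 148 CPM without 4sU, 142 and 147 CPM at 15 min, 124 and 125 CPM at 90 min, and 108 and 104 CPM at 120 min. It fell by 0.40 (adjusted p = 0.000733) and 0.44 (adjusted p = 0.000230). Kif2c, a kinesin that takes microtubules apart, fell by 0.36 and 0.32, and Aspm, a spindle pole protein, fell by 0.32 against 15 min with -0.15 against no4sU. Kif20a, Kif23, Kif4, Tpx2, Prc1, Nusap1 and Hmmr did not pass the threshold, and their log2 fold changes lay between -0.19 (Kif4, against 15 min) and 0.08 (Kif20a, against no4sU).

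**Figure D2:**
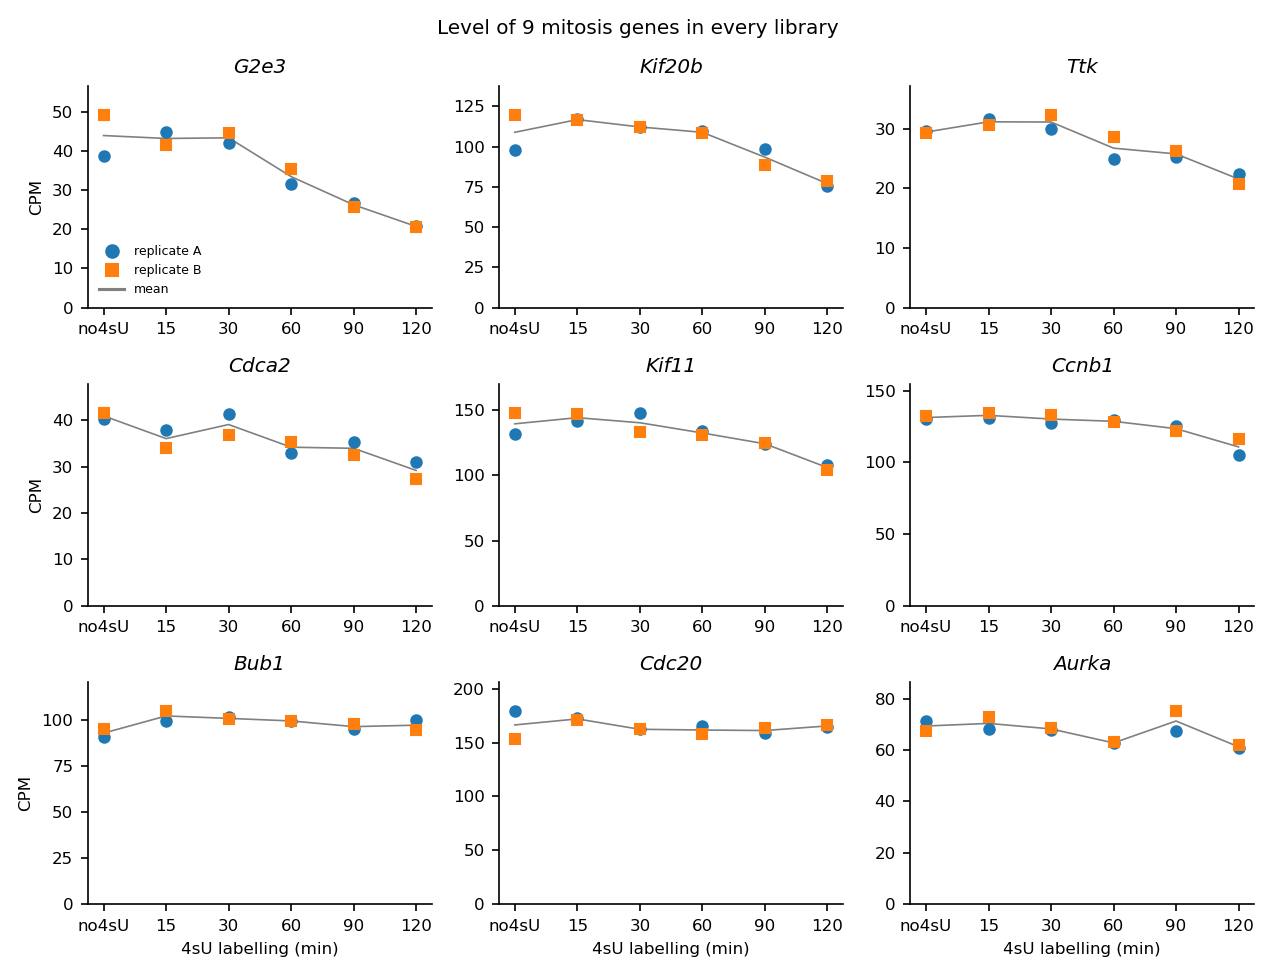
CPM (y axis, from 0) of 9 mitosis genes in each of the 12 libraries by labelling time, with circles for replicate A, squares for replicate B and a grey line through the means of 2 libraries. The 120 min libraries of G2e3 (20.7 and 20.7 CPM), Kif20b, Ttk, Cdca2, Kif11 and Ccnb1 are the lowest of their panels, and those of Bub1 and Cdc20 overlap with earlier times.

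In cytokinesis, Ect2 acts at the cell equator with the help of Racgap1 to start furrowing, and anillin (Anln) organises the contractile ring. Ect2 was at 97.9 and 110 CPM without 4sU, 114 and 112 CPM at 15 min, and 90.4 and 87.4 CPM at 120 min, and it fell by 0.23 against no4sU (adjusted p = 0.0245) and by 0.35 against 15 min (adjusted p = 0.00133). Anln and Racgap1 did not pass the threshold, with log2 fold changes from -0.07 to 0.06. Of the 7 genes of condensin and chromosome structure, Top2a alone fell. Against no4sU its call was not kept under DESeq2 or on the compared groups alone. Its exons overlap Gm23451 on the same strand. Top2a, the topoisomerase that untangles sister chromatids, was at 660 and 744 CPM without 4sU, 717 and 729 CPM at 15 min, and 625 and 627 CPM at 120 min, with log2 fold changes of -0.17 ± 0.05 (adjusted p = 0.0431) and -0.21 ± 0.05 (adjusted p = 0.0105). Mki67, which coats mitotic chromosomes and is the proliferation marker Ki-67, was at 369 and 431 CPM without 4sU, 453 and 449 CPM at 15 min, and 419 and 410 CPM at 120 min. Its 120 min libraries lay between the no4sU libraries and below both 15 min libraries, with log2 fold changes of 0.05 ± 0.06 and -0.12 ± 0.06. The condensin genes Smc2, Smc4, Ncapg, Ncapd2 and Ncaph ranged from -0.07 to 0.12.

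G2e3, which encodes a ubiquitin ligase with G2/M expression (chr12:51348061-51376986), had the largest decrease of the 50 genes. It was at 38.6 and 49.2 CPM without 4sU, 44.8 and 41.5 CPM at 15 min, 42.1 and 44.5 CPM at 30 min, 31.5 and 35.3 CPM at 60 min, 26.7 and 25.8 CPM at 90 min, and 20.7 and 20.7 CPM at 120 min. The libraries at 60, 90 and 120 min formed 3 levels without overlap, all below every library of shorter labelling. At 120 min the log2 fold change was -1.09 ± 0.11 (adjusted p = 3.32e-06) against no4sU and -1.06 ± 0.11 (adjusted p = 4.98e-06) against 15 min, a fall of 53.2% and 52.0%. At 90 min it was already -0.75 ± 0.11 (adjusted p = 0.000892) against no4sU. Cdca2, also called Repo-Man, which brings protein phosphatase 1 to chromatin at anaphase (chr14:67676331-67715841), was at 40.3 and 41.5 CPM without 4sU, 38.0 and 34.1 CPM at 15 min, 41.4 and 36.7 CPM at 30 min, and 31.0 and 27.3 CPM at 120 min, and it fell by 0.50 (adjusted p = 0.00176) and 0.31 (adjusted p = 0.0276). Cdca3, which triggers mitotic entry, had the largest log2 fold change above 0 against no4sU, 0.13 ± 0.07 (adjusted p = 0.211), and its 120 min libraries lay above both references.

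The NTR shows how much of each RNA was made during labelling. At 120 min the median over the mitosis genes was 0.385 ± 0.0096 (SD of the medians of 2 libraries), and over the 9065 genes of at least 100 counts it was 0.354 ± 0.0052. The DNA replication genes, 46 genes of S phase taken as a comparison list, had 0.276 ± 0.0064. No test was made of these differences. Members with a mean count of at least 1000 had a median below the 0.354 of all genes (given below), and all genes with that minimum were not summarised. The 50 genes spread from 0.144 to 0.970, with 27 above the median of all genes, 2 among the highest 10% of all genes and 0 among the lowest 10%. The highest were Cdca2 at 0.939 and 1.00 in the libraries A and B (90% posterior intervals from 0.860 to 0.980 and 0.907 to 0.996) and G2e3 at 0.965 and 0.964. Incenp followed at 0.754 and 0.657, then Kif20b at 0.728 and 0.674, and Aurka at 0.670 and 0.643. The lowest were Bub1 at 0.169 and 0.118, Ccnb2 at 0.188 and 0.124, Pttg1 at 0.164 and 0.185, Knstrn at 0.192 and 0.203, and Cdca3 at 0.183 and 0.226. In the order of the means, 45 of 49 neighbouring pairs had overlapping 90% intervals in both libraries, so neighbours were mostly not separated. G2e3 and Incenp, Aurka and Aspm, Kif4 and Prc1, and Smc4 and Hmmr were the pairs with an interval gap in at least 1 library. Libraries A and B differed by 0.0279 in the median gene and by up to 0.133 (Ttk, 0.403 and 0.537).

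Several genes whose products work together in the cell differed in NTR. The cyclin pair Ccnb1 (0.505 and 0.476) and Ccnb2 lay far apart, with 90% intervals that did not overlap in either library. So did the passenger complex subunits Incenp and Birc5 (0.271 and 0.267), and Espl1 (0.547 and 0.527) and its inhibitor Pttg1. The Aurora kinases differed as well, with Aurkb at 0.481 and 0.434. Condensin subunits ran from 0.213 (Ncapd2) to 0.342 (Ncaph) in the means, and the 90% intervals of these 2 did not overlap in either library. By role, the median NTR was 0.439 for the cyclins, Cdk1 and Cdc25 genes, 0.427 for spindle motors and microtubule proteins, 0.308 for condensin and chromosome structure, and 0.292 for checkpoint and kinetochore genes.

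**Figure D3:**
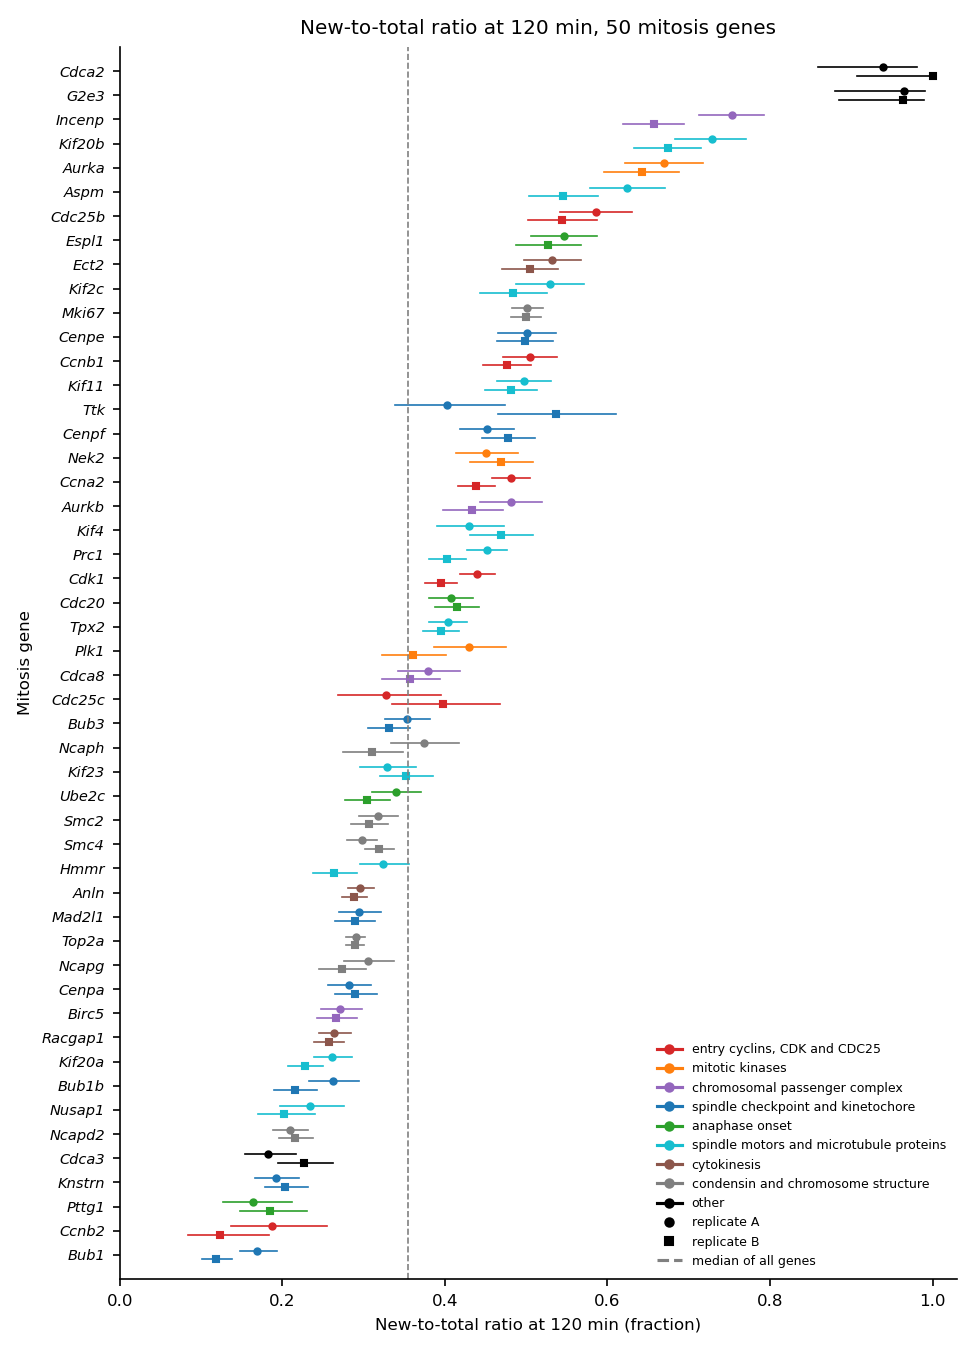
NTR at 120 min (x axis, fraction) of the 50 mitosis genes in falling order of the mean, with circles for replicate A, squares for replicate B, bars for the 90% posterior intervals and colours for roles. The dashed line is the median of all genes at 0.354, and the genes run from Cdca2 and G2e3 near 1 down to Bub1 at 0.144.

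Labelling time moved the half-life that the NTR implies. The apparent half-life, which assumes that RNA is made and lost at constant rates and that all new RNA is recognised, had a median over the members of 621 ± 103 min in the libraries labelled for 15 min (SD of 2 libraries). It was 338 ± 36.8, 208 ± 23.1, 198 ± 17.7 and 177 ± 12.9 min after labelling for 30, 60, 90 and 120 min, in that order. Over all genes it was 515 ± 63.9 min at 15 min and 198 ± 5.41 min at 120 min. The 15 min values rest on a median member NTR of 0.0134 in A and 0.0050 in B, and on members with an NTR of at least 0.01. At 120 min the apparent half-life was 24.9 min for G2e3, 69.0 min for Kif20b, 124 min for Ccnb1 and for Kif11, 154 min for Cdk1, 243 min for Top2a and 555 min for Bub1 (means of 2 libraries). The formula takes the total level as steady, and the levels of G2e3 and Kif20b fell. For G2e3 it gave 194, 86.2, 58.3 and 38.3 min after 15, 30, 60 and 90 min. Members with a mean count of at least 1000 had a median of 208 min and a median NTR of 0.330.

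Multiplying CPM by the NTR divides each gene's RNA into new RNA and old RNA, made before 4sU was added. Old G2e3 RNA went from 40.8 CPM at 15 min to 0.736 CPM at 120 min (means of 2 libraries), which is 1.81% of the 15 min value, while new G2e3 RNA stood at 17.05 ± 1.36 CPM at 60 min and 20.0 ± 0.0306 CPM at 120 min (SD, n = 2). New G2e3 RNA thus differed by a ratio of 1.17 between 60 and 120 min, the lowest of all members, for which the median ratio was 1.89 and the highest 2.73 (Incenp). Over all genes the median ratio was 2.14. Old Cdca2 RNA at 120 min was 2.69% of its 15 min value, and old Kif20b RNA 20.3%. The Cdca2 value is a mean of 1.88 CPM in A and 0 CPM in B, where the posterior maximum was 1. The posterior intervals of its NTR ran from 0.8595 to 0.9804 in A and from 0.9075 to 0.9958 in B. Those of G2e3 ran from 0.8794 to 0.9901 and from 0.8847 to 0.9899. These intervals allow larger old shares for Cdca2 and G2e3 than the values given. At the other end, old Pttg1 RNA at 120 min was 89.0% of its 15 min CPM, and old Bub1 RNA 81.7%. The median over the members was 59.6%. Over all genes it was 64.9%, with values from 0 to 250%. Old CPM is a share of each library and not an amount, so these percentages are not fractions of old RNA that survived. For Ccnb1, old RNA at 120 min was 43.6% of its 15 min CPM. New Ccnb1 RNA stood at 30.9 ± 4.06 CPM at 60 min and 54.2 ± 1.48 CPM at 120 min. For Mki67, old RNA was at 207 CPM and new RNA at 207 CPM at 120 min.

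**Figure D4:**
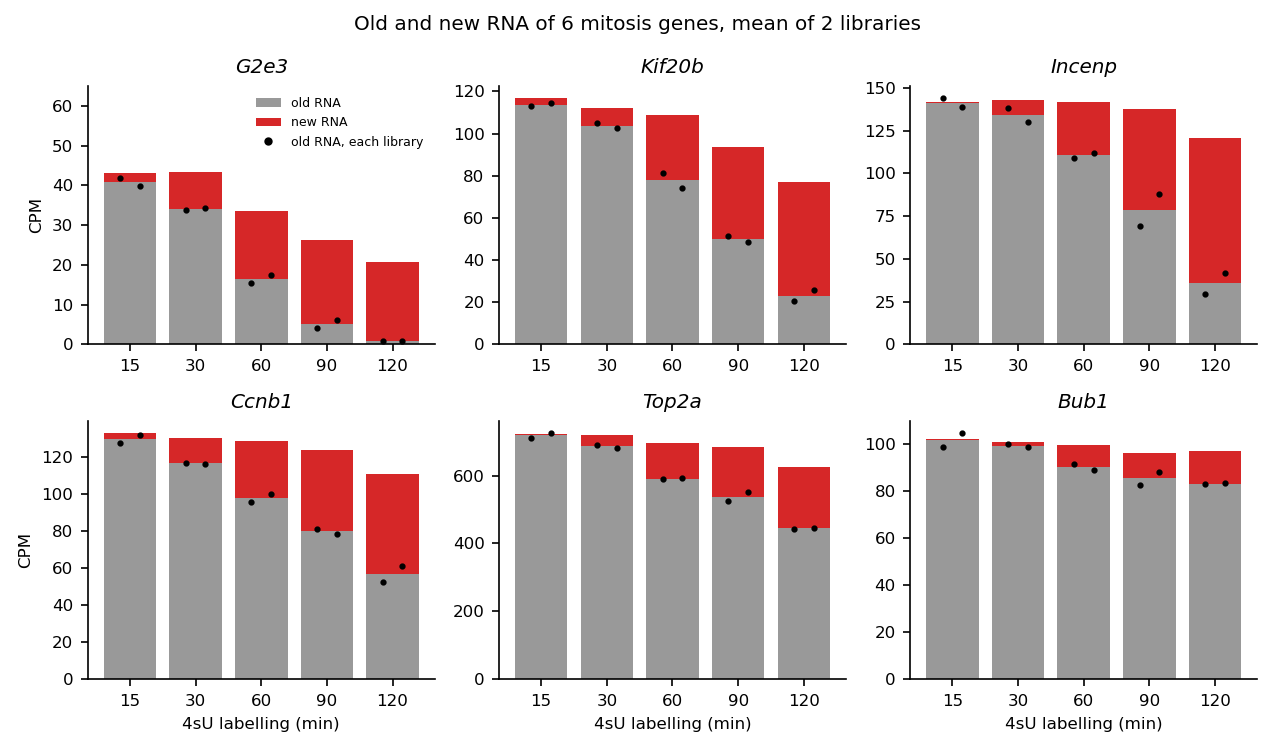
Stacked bars of old RNA (grey) and new RNA (red) in CPM (y axis, from 0) by labelling time for 6 mitosis genes, as means of 2 libraries, with dots for the old RNA of each library. Old G2e3 RNA falls to 0.736 CPM at 120 min with little gain in new RNA after 60 min, and Bub1 keeps 81.7% of its old RNA.

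Members with a higher NTR had lower fold changes at 120 min. Across the 50 genes the Spearman rank correlation between the NTR at 120 min and the log2 fold change was -0.73 against no4sU and -0.77 against 15 min. Across the 9065 genes it was -0.74 and -0.76. These are descriptions across genes, which are not independent replicates, and both measures come from the same 120 min libraries. Of the 11 members with an NTR of 0.5 or more, 7 fell against no4sU (63.6%), against 28.5% of the 3038 genes of that class. Between 0.25 and 0.5, 6 of 30 members fell (20%), against 2.79% of 3006 genes. Below 0.25, 0 of 9 members fell and 0 rose, and 0.0662% of 3021 genes fell and 17.9% rose. Against 15 min the shares that fell were 81.8% of members and 36.3% of genes in the highest class, and 20% and 4.99% in the middle class. In the highest class the median log2 fold change was -0.23 for members and -0.19 for genes against no4sU, and -0.31 and -0.20 against 15 min. In the middle class it was -0.04 and 0.01 against no4sU. Members had higher counts than these genes (median mean count 1196 against 553), and how far this raised their shares was not tested. The 16 members lower in either comparison had NTRs from 0.290 (Top2a) to 0.970, and the 34 others from 0.144 to 0.656 (Aurka).

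The relation between NTR and fold change was removed in each labelled library by scaling the labelled part of its counts. The scaling was solved from these same data to remove it, so the removal was fixed in advance. Whether labelled reads were lost was not tested. The loss of labelled reads that would account for the whole relation over all genes was 30.3% in 120 min A and 31.9% in 120 min B. It was 20.8% and 24.0% at 90 min, and 16.0% and 13.0% at 60 min (A and B). At 15 and 30 min, where little RNA was labelled, it lay between -29.7% and 0.389%. With counts scaled up in this way, 6 members were lower against no4sU (G2e3, Kif11, Kif20b, Kif2c, Top2a and Ttk) and 7 against 15 min (Ccna2, Ect2, G2e3, Kif11, Kif20b, Top2a and Ttk), and 0 were higher in either. Over all genes, 0.871% and 1.49% were then lower. G2e3 kept a log2 fold change of -0.80 against no4sU and Kif20b one of -0.34, while Incenp had -0.03 (adjusted p = 0.90) and Cdca2 had -0.20 (adjusted p = 0.320).

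Summed over the 50 genes, the level was 6627 ± 205 CPM without 4sU (SD, n = 2), 6824 ± 22.3 CPM at 15 min, 6802 ± 11.4 CPM at 30 min, 6710 ± 21.5 CPM at 60 min, 6620 ± 30.4 CPM at 90 min and 6253 ± 11.5 CPM at 120 min. The labelled groups did not overlap between 30, 60, 90 and 120 min, and both 120 min libraries were below all the other libraries. The lowest group mean was at 120 min for 26 of the 50 genes, and the share of all genes with this pattern was not counted. Per kilobase of deposited length, the most abundant in the no4sU libraries were Top2a at 134 CPM per kilobase, Cdc20 at 92.9 and Ccna2 at 74.9, and the least abundant were G2e3 at 6.45, Aspm at 6.997 and Cdc25c at 8.16.

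Other genes of mitosis were counted in the same way, beside shares over all genes of 8.78% lower and 5.43% higher against no4sU, and 11.3% and 7.93% against 15 min. Of 33 other kinetochore and checkpoint genes, 10 fell (30.3%) and 1 rose (3.03%) against no4sU, and 10 fell and 0 rose against 15 min. Ska3, Ska2 and Nsl1, parts of the microtubule-binding outer kinetochore, fell by 0.67, 0.60 and 0.59 against no4sU. Of 13 regulators of mitotic entry, 6 fell (46.2%) and 0 rose in each comparison. Cdc25a was at 69.3 and 71.9 CPM without 4sU and at 51.0 and 45.2 CPM at 120 min, a log2 fold change of -0.56 ± 0.07 (adjusted p = 9.5e-05). Wee1, the kinase that restrains Cdk1, and Bora, a cofactor through which Aurora A activates Plk1, fell by 0.56 each.

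Among 22 other spindle and cytokinesis genes, 7 fell (31.8%) and 0 rose in each comparison. Arhgef39, Depdc1b and Cep55 led against no4sU (-0.60, -0.58 and -0.42). Arhgef39 (3.81 and 4.20 CPM at 120 min) and Depdc1b (5.30 and 6.75 CPM) were at low levels. Depdc1b did not pass the threshold against 15 min (adjusted p = 0.131). Of 20 tested transcription factors of G2/M and of the DREAM and NF-Y complexes, 6 fell (30%) and 0 rose against no4sU, and 8 fell (40%) and 1 rose against 15 min. Lin9 and Lin52, MuvB subunits, and E2f5 fell by 0.61, 0.54 and 0.44 against no4sU. Lin52, at 8.92 and 6.68 CPM at 120 min, did not pass the threshold against 15 min (adjusted p = 0.0535). APC/C genes were near the shares of all genes, with 2 of 17 lower (11.8%) and 0 higher against no4sU, and 2 lower and 2 higher (11.8% each) against 15 min. Those lower against no4sU were the APC/C inhibitor Fbxo5 (log2 fold change -0.44, with an NTR of 1.00 in both libraries at 120 min) and the subunit Cdc27 (-0.33). Cohesin genes were also near these shares against no4sU, with 1 lower (Esco2, -0.47) and 1 higher (Smc1a, 0.22 ± 0.05) of 14 (7.14% each), and had 3 lower (21.4%) and 1 higher against 15 min. For comparison, 8 of 46 DNA replication genes fell (17.4%) and 2 rose (4.35%) against no4sU, and 8 fell and 0 rose against 15 min. The largest falls against no4sU were those of the origin recognition genes Orc5, Orc6 and Orc2 (-0.49, -0.39 and -0.36). The median log2 fold changes against no4sU ranged from -0.20 (transcription factors) to 0.06 (APC/C), beside -0.06 for the 50 mitosis genes and 0.01 for all genes.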

How the data were processed

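RNA of 12 NIH-3T3 libraries was analysed from 1 table of genes. Estimated counts, not scaled between libraries, were deposited by the authors; 20.4% were not whole (tolerance 1e-06), 47 of the 50 members having such a count in at least 1 library, and they were rounded. The NTR was deposited as a fraction, per the file headers, as the posterior maximum (used here), the mean and the 0.05 and 0.95 quantiles. The alpha and beta parameters, each deposited as a score, were not used. Cutadapt, Bowtie2 2.3.0 and STAR 2.7.10b are named in the submitters' processing notes; the genome build, annotation, counter and use of strand were not given in the sources used here. Reads with many conversions may fail to align, which would lower counts and NTR. The counts of 14 members, 2 of them lower at 120 min, may share reads with a gene on the other strand. The table had 0 columns of other samples and 0 rows without a gene.

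Counts were fitted with edgeR 4.0.16 (R 4.3.3; limma 3.58.1) over all 12 libraries without covariates, after filterByExpr and TMM, by the quasi-likelihood test with Benjamini-Hochberg adjustment over 11564 genes (threshold 0.05; common biological coefficient of variation 4.44%). The SE is the absolute log2 fold change divided by the square root of F. The script was tested on simulated data. Groups and replicate letters came from the sample titles. Samples with the same letter did not deviate together (correlations from -0.127 to 0.148 over 15 pairs of groups, 3 above 0.1), so letters were not used as pairs. Medians of NTR used genes averaging 100 or more counts, and apparent half-lives, ln 2 times labelling time over -ln(1-NTR), an NTR from 0.01 to 0.99. Total reads of 9917026 to 13739380 limit the precision, and errors over 2 libraries do not include that of the NTR model. Alternatives were DESeq2 1.42.0, library size scaling, no filter, a replicate block, fewer groups, each library left out, counts with the labelled part scaled up, and for the NTR the posterior mean and other count minimums; 15 min as the reference at 30, 60 and 90 min was added after seeing the data.

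Members and lists were chosen with earlier results of these data known. All members could be named; full values went to the 5 largest falls, the 5 highest and lowest NTRs and 7 known genes (Ccnb1, Cdk1, Plk1, Aurka, Cdc20, Top2a, Mki67), and in other lists up to 3 genes, with the largest changes past the threshold against no4sU, were named. Other members with values were chosen after these were seen. Ccnb3 and Sept9 were not analysed here. Gene locations were looked up by Ensembl ID in GENCODE M21 (GRCm38), and promoters from RefSeq on GRCm38.p6. Other work used Python 3.11.15 (pandas 2.3.3, numpy 2.4.6, matplotlib 3.10.9, scipy 1.17.1).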

Additional observations from a re-analysis of the deposited data

How the results depend on the processing

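Over the alternatives run, DESeq2, library size alone, no filter and the replicate block kept the number of members lower at 120 min within 1.5 times (11, 18, 13 and 14 against no4sU; 13, 21, 15 and 16 against 15 min, with the block last). In the same order, 7.17, 14.6, 6.67 and 9.21% of all genes were lower against no4sU, and 10.1, 16.1, 8.28 and 11.6% against 15 min. Fitted on the compared groups alone, 4 members were lower against no4sU and 21 against 15 min, and on the labelled libraries alone 21 against 15 min; the cause was not tested. With the labelled part of the counts scaled up, 6 and 7 were lower. Leaving out 1 library gave 5 to 19 lower and 0 to 4 higher against no4sU, and 8 to 12 lower against 15 min. Members called against no4sU ranged from 0 to 10 at 15 min, 0 to 9 at 30 min, 0 to 9 at 60 min and 0 to 8 at 90 min when 1 library was left out. These counts rest on groups of 1 library and are descriptions only. Of all genes, library size alone called 2.27% lower and 0.190% higher at 90 min against no4sU. The compared groups alone called 0% and 0.0177% there. Without the filter the shares were 1.51% and 1.05% at 90 min, and 0.287% and 0.269% at 60 min. At 60 min, 1 member was called without the filter. At 90 min, 2 were called with library size alone, 3 without the filter, 0 on the compared groups alone and 2 with 15 min as the reference, which became 6 on the compared groups or the labelled libraries and 0 to 1 when 1 library was left out. The median NTR was 0.330 and the median apparent half-life 208 min for members with a mean count of at least 1000; without 1 library they were 0.378 to 0.391 and 168 to 186 min, and the posterior mean gave 0.385 and 171 min. Values near 0 changed sign without passing the threshold in either direction, except where named. Against no4sU, Plk1 was -0.043 with library size alone and -0.033 to 0.077 without 1 library, Cdc20 was 0.013 with scaled counts and -0.11 to 0.11 without 1 library, and Mki67 was -0.017 with library size alone and -0.057 to 0.17 without 1 library, the highest value, without no4sU B, passing the threshold. Against 15 min, Plk1 was -0.078 to 0.016 without 1 library. With 2 libraries a group, 1 library decides many calls.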
